A study of Mus musculus with 4 samples.

Results

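The genes described here encode the subunits of the proteasome, with its assembly chaperones, activators and inhibitor, in mouse oocytes. They were taken as every gene symbol of the count tables made of Psm, one letter from a to g, a number and an optional b, which gave 49 of 53677 symbols. The libraries came from oocytes at the germinal vesicle (GV) stage, arrested in meiotic prophase. Their donors were female mice primed 48 h earlier with PMSG (7.5 IU), a gonadotropin that drives follicle growth. There were 2 groups: Ell3 KD, in which Ell3 was knocked down, and Ctrl, the control, each with 2 libraries of 5 oocytes pooled together. The sources used here give neither the way Ell3 was knocked down, nor what controls received, nor strain and age. Smart-seq2, which copies whole mRNAs into cDNA from a few cells, was used on polyadenylated RNA, and reads were counted per gene.

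The proteasome is the protease that degrades proteins tagged with ubiquitin. Its 20S core is a barrel whose outer rings of alpha subunits (Psma genes) control entry and whose inner rings of beta subunits (Psmb genes) carry the active sites. The 19S regulatory particle caps the core: a ring of ATPases (Psmc genes) unfolds substrates, and non-ATPase subunits (Psmd genes) bind and remove ubiquitin. In oocytes, proteasomal breakdown of cyclin B and securin allows chromosomes to separate in meiosis.

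The promoter windows of 4 genes from different subcomplexes and with different calls are shown first. The transcripts of Psma2 and Psmb6, of the core, were higher in Ell3 KD. Psmd12 was the single gene that rose among the 11 non-ATPase subunits that the symbol rule took in. Psmd4, the most abundant of those subunits, did not pass the test. Whether the subcomplexes differed was not tested. Each window runs from 250 bases before the RefSeq start to 50 after it. Capitals mark every match, on either strand, to 3 motifs searched in all windows: TGACNNNGC, the core of the antioxidant response element, CCAAT, and CCGGAAG, the core of sites of ETS factors. No matches to different motifs overlap in these 4 windows.
Psma2 (GRCm38.p6, chr13:14612992-14613291, plus strand): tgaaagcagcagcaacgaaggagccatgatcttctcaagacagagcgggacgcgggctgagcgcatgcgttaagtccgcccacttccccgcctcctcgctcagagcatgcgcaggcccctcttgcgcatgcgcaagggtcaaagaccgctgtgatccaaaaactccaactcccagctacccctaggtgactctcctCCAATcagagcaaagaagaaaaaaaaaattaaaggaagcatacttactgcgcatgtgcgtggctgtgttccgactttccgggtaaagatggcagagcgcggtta
Psmb6 (GRCm38.p6, chr11:70525107-70525406, plus strand): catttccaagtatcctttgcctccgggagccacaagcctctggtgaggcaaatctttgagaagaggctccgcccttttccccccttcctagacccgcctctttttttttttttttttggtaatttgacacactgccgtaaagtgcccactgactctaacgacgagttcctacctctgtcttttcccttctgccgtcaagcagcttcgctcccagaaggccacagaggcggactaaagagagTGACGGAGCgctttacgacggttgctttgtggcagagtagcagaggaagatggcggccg
Psmd12 (GRCm38.p6, chr11:107479278-107479577, plus strand): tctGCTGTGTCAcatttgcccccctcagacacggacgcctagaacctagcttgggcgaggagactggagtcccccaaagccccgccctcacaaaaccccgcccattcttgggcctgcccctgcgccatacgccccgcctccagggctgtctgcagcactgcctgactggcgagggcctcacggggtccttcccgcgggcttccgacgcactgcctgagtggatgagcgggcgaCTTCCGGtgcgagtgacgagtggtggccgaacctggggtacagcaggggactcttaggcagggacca
Psmd4 (GRCm38.p6, chr3:95042565-95042864, minus strand): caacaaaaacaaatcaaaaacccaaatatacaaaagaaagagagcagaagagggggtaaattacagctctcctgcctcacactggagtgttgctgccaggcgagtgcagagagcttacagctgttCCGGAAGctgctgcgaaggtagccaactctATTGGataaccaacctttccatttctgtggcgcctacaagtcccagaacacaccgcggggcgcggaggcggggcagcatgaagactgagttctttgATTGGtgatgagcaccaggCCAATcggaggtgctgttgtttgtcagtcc

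The library totals were 89632815 and 65722415 counts in Ell3 KD and 45131278 and 48669267 in Ctrl, so the groups did not overlap in depth. Where a gene had no count, its level could still be as high as 0.0339 and 0.0464 CPM in Ell3 KD and 0.0656 and 0.0608 CPM in Ctrl, the level of 3 counts. CPM here is the count scaled by library total and TMM factor. Such bounds hold for counting error alone, since the labels describe no molecular identifiers to tell PCR copies apart. Ell3, which encodes an elongation factor of RNA polymerase II, had 2.88 and 2.8 CPM in Ell3 KD, against 8.12 and 9.78 CPM in Ctrl (log2 fold change -1.66 ± 0.14, edgeR adjusted p = 6.04e-10; here and below ± is the standard error of a fold change). Serinc4 shares 65.6% of the exon length of Ell3 on the same strand, which makes this check of the knockdown less certain. Of 13 markers of the oocyte all had counts, with Zp3 at 7438 and 7362 CPM in Ell3 KD, against 7408 and 7436 CPM in Ctrl. Other oocyte markers were called in both directions. Dppa3, Oosp1 and Ooep rose (log2 fold change 0.49, 0.46 and 0.40). Nobox, Nlrp5, Gdf9 and Zp1 fell (log2 fold change -0.27, -0.23, -0.20 and -0.12). The summed level of 14 cumulus and granulosa markers was 331 and 341 CPM in Ell3 KD, against 325 and 328 CPM in Ctrl, of which Serpine2 made up most without being called (edgeR adjusted p = 0.133). Among the others Ptgs2 (log2 fold change 2.79 ± 0.45, edgeR adjusted p = 1.89e-05) and Inha (log2 fold change 1.16 ± 0.24, edgeR adjusted p = 3.63e-04) rose and Nr5a2 fell (log2 fold change -0.24 ± 0.06, edgeR adjusted p = 0.00391). Amh had 9 and 5 counts in Ell3 KD, against 0 and 0 in Ctrl, Amhr2 had 8 and 3 counts in Ell3 KD, against 0 and 0 in Ctrl, and Foxl2 had 4 and 3 counts in Ell3 KD, against 0 and 0 in Ctrl. None of these passed the low-count filter. Has2, which did not pass it either, had 2 and 2 counts in Ell3 KD, against 7 and 3 in Ctrl. Fshr had 0.598 and 0.448 CPM in Ell3 KD, against 0.897 and 1.01 CPM in Ctrl, and was not called (edgeR adjusted p = 0.063). Of the 8 cumulus and granulosa markers tested, 4 lay higher in both Ell3 KD libraries and 2 lower. The summed level of 13 immune markers was 13.4 and 12 CPM in Ell3 KD, against 11.5 and 11.1 CPM in Ctrl, with Lyz2, Adgre1 and Tyrobp at 0 in all 4 libraries. Within this sum H2-Aa and Cd74 rose (log2 fold change 0.62 and 2.11), and Cd68 and Csf1r fell (-1.16 and -2.39). The counts of Cd74 and Csf1r were low. The 8 theca and stroma markers summed to 5.2 and 5.44 CPM in Ell3 KD, against 5.91 and 6.06 CPM in Ctrl, and the 5 erythroid markers summed to 0.0677 and 0.0464 CPM in Ell3 KD, against 0.175 and 0.365 CPM in Ctrl, with the globin genes at 0. Over all genes tested, 21.1% rose and 21.8% fell. Of the markers tested, 3 rose and 4 fell for the oocyte, 2 and 1 for cumulus and granulosa, 1 and 0 for theca and stroma, 2 and 2 for immune cells and 0 and 1 for erythroid cells. The part of these cells in the results was not tested.

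The mRNAs of 12 of the 14 constitutive 20S core genes were higher in the Ell3 KD oocytes, while the fold changes of those of the non-ATPase subunits of the regulatory particle lay on both sides of 0. Of the 49 genes, 47 passed the filter on low counts and were tested. Of these, 23 (48.9%) rose and 3 (6.38%) fell at an adjusted p under 0.05 (edgeR), beside 21.1% of all 17879 genes tested that rose and 21.8% that fell. Both Ell3 KD libraries lay above both Ctrl libraries for 31 of the 47 genes (66%; 35% of all genes tested) and below them for 5 (35.7% of all genes tested). The median log2 fold change was 0.14 over the 47 genes and -0.0024 over all genes tested. The changes were small: all 42 members at 5 CPM or more had a 95% interval that excluded a rise or fall of 2-fold. All levels are relative to the other mRNAs of a library. Each library pooled 5 oocytes, but the mRNA content of an oocyte was not measured. For any other cells carried over, fewer cells and less RNA per cell cannot be told apart. Abundant genes were called more often in general, and among the 3886 genes tested at 50 CPM or more 36.4% rose and 23.2% fell, beside 21 and 1 of the 37 members at that level.

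**Figure D1:**
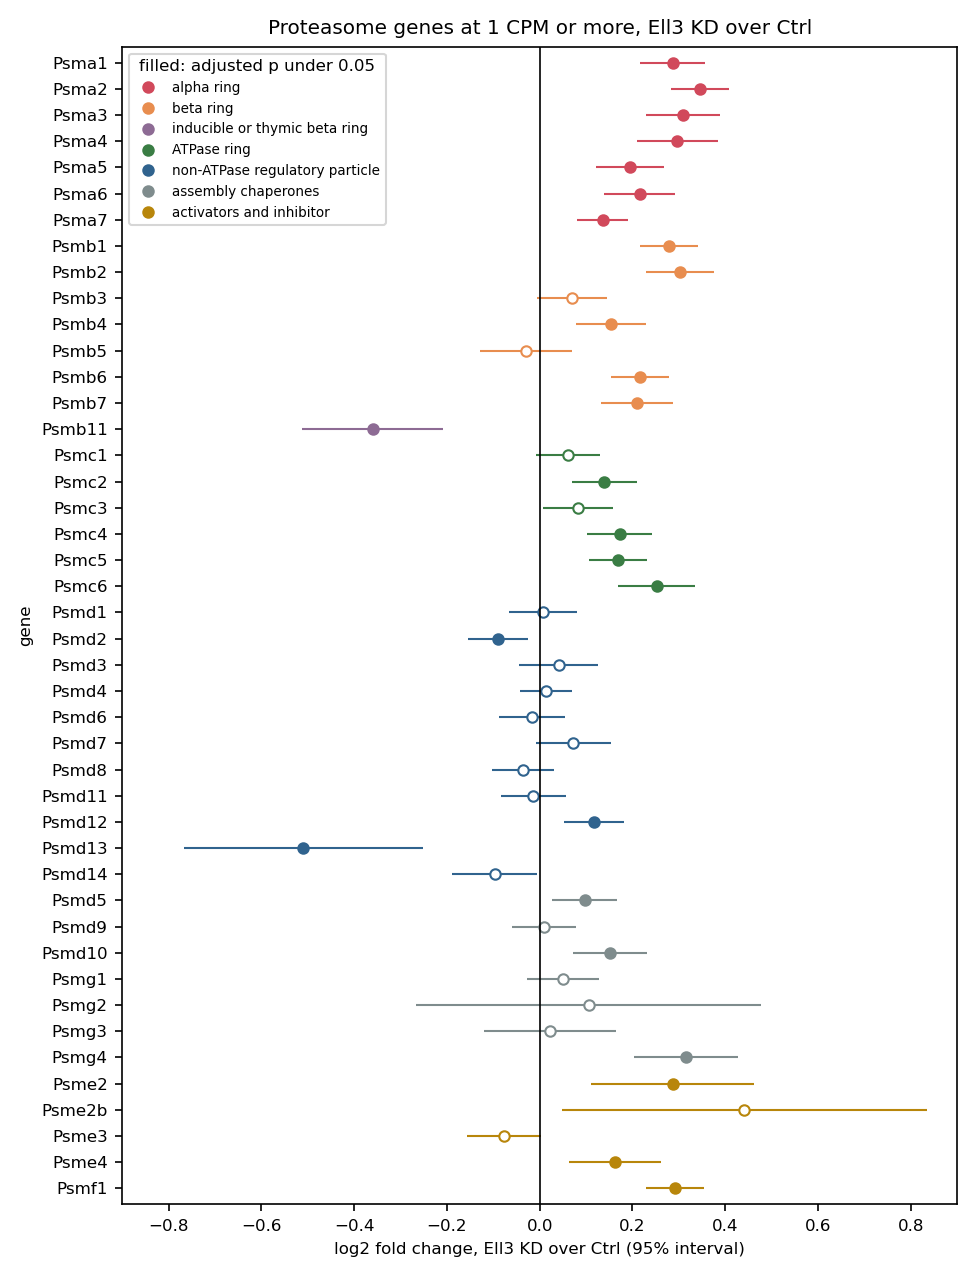
Log2 fold change of Ell3 KD over Ctrl (horizontal axis) with its 95% interval for the 44 proteasome genes with a mean of 1 CPM or more, 1 gene per row and coloured by role; filled points have an edgeR adjusted p under 0.05. All 7 alpha ring genes lie to the right of 0, whereas 1 of the 11 non-ATPase genes rose and 2 fell.

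All 7 genes of the alpha ring rose, with log2 fold changes from 0.14 to 0.35 and a median of 0.29. Psma2 had 494 and 496 CPM in the Ell3 KD libraries, against 393 and 385 CPM in the Ctrl libraries. Its groups did not overlap and lay far apart beside the few CPM between libraries of a group (log2 fold change 0.35 ± 0.03, edgeR adjusted p = 1.38e-09). Psma7, the most abundant of all the members, had 1406 and 1415 CPM in Ell3 KD, against 1269 and 1299 CPM in Ctrl. This was the smallest rise of the ring (log2 fold change 0.14 ± 0.03, edgeR adjusted p = 2.11e-04), again without overlap. Between these, Psma3 (0.31), Psma4 (0.30) and Psma1 (0.29) rose more than Psma6 (0.22) and Psma5 (0.19) by their log2 fold changes, though differences between genes were not tested. Psma3 had 139 and 142 CPM in Ell3 KD, against 110.1 and 116 CPM in Ctrl, and Psma1 had 236 and 242 CPM in Ell3 KD, against 193 and 198 CPM in Ctrl. The alpha ring is built first in assembly, and its tails form the gate of the core. Summed over the ring, the level was 2734 and 2772 CPM in Ell3 KD, against 2356 and 2405 CPM in Ctrl. The groups did not overlap. Psma8, which encodes a germline alternative to the product of Psma7 known from mouse testis, had no count in any library and was not tested.

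Of the 7 constitutive beta ring genes 5 rose and none fell, with a median log2 fold change of 0.21. Psmb2 had the largest rise, at 182 and 181 CPM in the Ell3 KD libraries, against 148 and 147 CPM in the Ctrl libraries (log2 fold change 0.30 ± 0.04, edgeR adjusted p = 1.57e-07). Psmb1 had 450.0 and 449 CPM in Ell3 KD, against 368 and 374 CPM in Ctrl (log2 fold change 0.28 ± 0.03, edgeR adjusted p = 5.87e-08). Neither product is an active protease; they shape the ring around the active sites. The 3 genes whose products carry active sites differed in their calls. Psmb6, which encodes the caspase-like subunit, had 772 and 743 CPM in the Ell3 KD libraries, against 667 and 638 CPM in the Ctrl libraries (log2 fold change 0.22 ± 0.03, edgeR adjusted p = 2.99e-06). Psmb7, of the trypsin-like subunit, had 136 and 135 CPM in Ell3 KD, against 119 and 116 CPM in Ctrl (log2 fold change 0.21 ± 0.04, edgeR adjusted p = 6.28e-05). Psmb5, of the chymotrypsin-like subunit, had 59.1 and 56.4 CPM in Ell3 KD, against 60.6 and 57.3 CPM in Ctrl. Its groups overlapped and it missed the threshold (log2 fold change -0.03, 95% interval -0.13 to 0.07, edgeR adjusted p = 0.66). The interval of Psmb5 ended below that of Psmb6 (0.15 to 0.28) and that of Psmb7 (0.13 to 0.29), but the difference between the genes was not tested. Psmb4 rose by 0.15 ± 0.04 on the log2 scale, and Psmb3, at 236 and 219 CPM in Ell3 KD, against 219 and 214 CPM in Ctrl, missed the threshold (edgeR adjusted p = 0.129). Summed over the 7 genes, the beta ring had 1987 and 1936 CPM in Ell3 KD, against 1721 and 1679.8 CPM in Ctrl. Psmb5, Psmb6 and Psmb7 have annotated pseudogenes, and how reads matching several genes were counted is not stated, so the counts of these genes are less certain. Nek6, on the other strand, shares 11.8% of the exon length of Psmb7, and Mir686 lies in 12.1% of that of Psmb5.

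**Figure D2:**
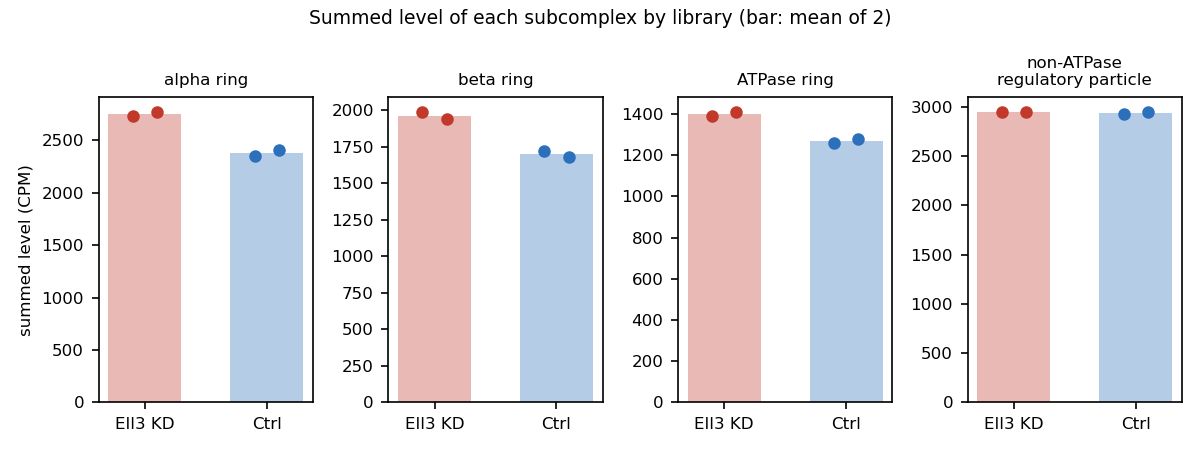
Summed level (CPM, vertical axis from 0) of the alpha ring, beta ring, ATPase ring and non-ATPase subunits in each library, Ell3 KD left of Ctrl; points are libraries and bars the mean of 2. The groups do not overlap for the first 3 sums, and the sums of the non-ATPase subunits lie between 2924 and 2946 CPM in all 4 libraries.

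The alternative beta subunits were scarce. Psmb8, Psmb9 and Psmb10 replace the active subunits in immunoproteasomes, which are induced by interferon. Psmb8 had 37 and 24 counts in Ell3 KD, against 15 and 5 in Ctrl, Psmb9 had 2 and 13 counts in Ell3 KD, against 5 and 1 in Ctrl and Psmb10 had 42 and 27 counts in Ell3 KD, against 17 and 36 in Ctrl. Psmb8 and Psmb10 missed the threshold (edgeR adjusted p = 0.228 and adjusted p = 0.624), and Psmb9 did not pass the low-count filter. Their summed level was 0.914 and 0.989 CPM in Ell3 KD, against 0.809 and 0.851 CPM in Ctrl. The 95% intervals of the log2 fold change were wide, -0.31 to 2.09 for Psmb8 and -1.24 to 0.63 for Psmb10. Psmb11 encodes the beta subunit of the thymoproteasome, known from epithelial cells of the thymic cortex, and unlike the other 3 it was well above the floor. It had 18.2 and 18.3 CPM in the Ell3 KD libraries, against 24.9 and 21.9 CPM in the Ctrl libraries. Both Ell3 KD libraries lay below both Ctrl libraries, and Psmb11 fell (log2 fold change -0.36 ± 0.07, edgeR adjusted p = 3.16e-04). Psmb11 (chromosome 14, 54621433 to 54629556 on the plus strand of GRCm38) and Psmb5 (chromosome 14, 54614119 to 54618022 on the minus strand) are neighbours without shared exons in GENCODE M21. Genes on the other strand share 14.7% of the exon length of Psmb8 and 5.79% of that of Psmb9, which adds to the uncertainty of these low counts.

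**Figure D3:**
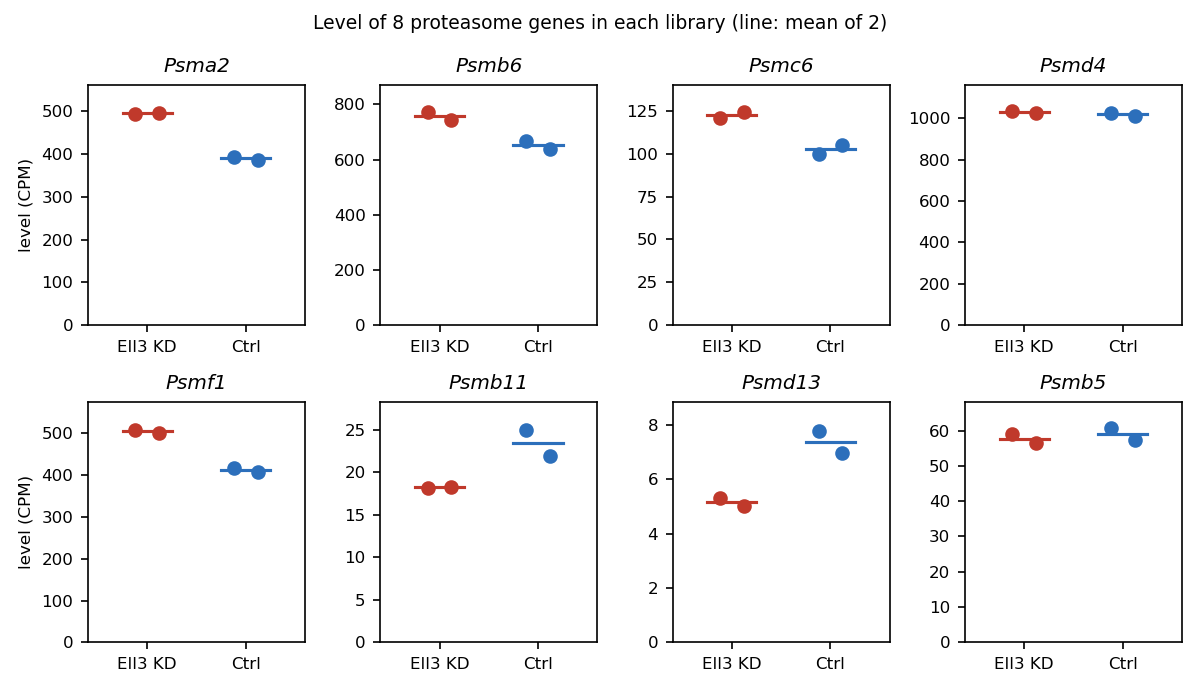
Level (CPM, vertical axes from 0) of 8 proteasome genes in each library, Ell3 KD left of Ctrl; points are libraries and lines the mean of 2. Psma2, Psmb6, Psmc6 and Psmf1 are higher in both Ell3 KD libraries, Psmb11 and Psmd13 lower, and the libraries of Psmb5 and Psmd4 overlap between groups.

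In the base of the regulatory particle, 4 of the 6 ATPase genes rose and none fell, with a median log2 fold change of 0.15. Psmc6 had the largest rise, at 121 and 124 CPM in Ell3 KD, against 100.1 and 105 CPM in Ctrl (log2 fold change 0.25 ± 0.04, edgeR adjusted p = 1.40e-05). Psmc5, the most abundant of the 6, had 417 and 426 CPM in Ell3 KD, against 375 and 374 CPM in Ctrl (log2 fold change 0.17 ± 0.03, edgeR adjusted p = 7.98e-05). Psmc4 and Psmc2 rose by 0.17 and 0.14 on the log2 scale. Psmc1, at 276 and 288 CPM in Ell3 KD, against 267 and 274 CPM in Ctrl, and Psmc3, at 148 and 143 CPM in Ell3 KD, against 138 and 138 CPM in Ctrl, also lay higher in both Ell3 KD libraries but missed the threshold (edgeR adjusted p = 0.142 and adjusted p = 0.072). All 6 genes thus lay higher in both Ell3 KD libraries. So did 35% of all genes tested, and 35.7% lay lower in both. The sum over the ring was 1389 and 1410.1 CPM in Ell3 KD, against 1261 and 1278 CPM in Ctrl. Slc39a13, on the other strand, shares 8.25% of the exon length of Psmc3, and whether counting used strand is not stated, which leaves its counts less certain. Overlaps of at most 9.68% likewise touch Psma4, Psma5, Psmd1, Psmd3, Psme1, Psme2b and Psmg3.

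The non-ATPase subunit genes with Psm symbols showed no common direction: of 11, 1 rose and 2 fell, with a median log2 fold change of -0.01. Sem1, which rose, and Adrm1, which fell, also encode subunits of the particle. They lie outside the symbol rule and are given below with the partners. Psmd12, a scaffold gene of the lid, had 382 and 389 CPM in Ell3 KD, against 350.4 and 361 CPM in Ctrl (log2 fold change 0.12 ± 0.03, edgeR adjusted p = 0.00382). Psmd2, which encodes the base subunit that docks ubiquitin shuttles, had 353 and 363 CPM in Ell3 KD, against 379.6 and 382 CPM in Ctrl. It fell (log2 fold change -0.09 ± 0.03, edgeR adjusted p = 0.022), and it was not called in 2 of the 4 fits that left out a library, with a highest adjusted p of 0.255, nor with offsets for length and GC content (adjusted p = 0.226). Psmd13, of the lid, had 5.3 and 5.02 CPM in the Ell3 KD libraries, against 7.77 and 6.97 CPM in the Ctrl libraries. It fell (log2 fold change -0.51 ± 0.13, edgeR adjusted p = 0.0018), the largest fall among the members tested. Sirt3, on the other strand, shares 10.1% of the exon length of Psmd13, so its few counts are less certain. Psmd4, the gene of a ubiquitin receptor, had 1037 and 1023 CPM in Ell3 KD, against 1027 and 1013 CPM in Ctrl, and its groups overlapped (log2 fold change 0.01, 95% interval -0.04 to 0.07, edgeR adjusted p = 0.715). Psmd14, which encodes the deubiquitinase of the lid, lay at 63.2 and 63.8 CPM in Ell3 KD, against 67.3 and 68.5 CPM in Ctrl and missed the threshold (edgeR adjusted p = 0.0817). The other 6 genes, Psmd1, Psmd3, Psmd6, Psmd7, Psmd8 and Psmd11, had log2 fold changes from -0.04 to 0.07 and did not pass it either. Summed over the 11 genes, the level was 2941 and 2945 CPM in Ell3 KD, against 2924 and 2946 CPM in Ctrl, and the groups overlapped.

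Over whole subcomplexes, the 14 core genes summed to 4721 and 4709 CPM in Ell3 KD, against 4077 and 4085 CPM in Ctrl. The 17 genes of the regulatory particle summed to 4329.5 and 4356 CPM in Ell3 KD, against 4185 and 4224 CPM in Ctrl. Sem1 and Adrm1 are not part of this sum. The log2 ratio of Ell3 KD over Ctrl was 0.21 for the first sum and 0.05 for the second, and of the genes 12 of 14 rose in the core and 5 of 17 in the regulatory particle, where 2 fell. The difference between the subcomplexes was not tested. All 49 genes together took 1.045% and 1.041% of the counts in Ell3 KD, against 0.978% and 0.983% in Ctrl.

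Assembly chaperones bring the subunits together and leave the finished particle. Of 7 genes, 3 rose and none fell. Psmg4, which encodes a chaperone of the alpha ring, had 44.3 and 45.5 CPM in Ell3 KD, against 34.8 and 37.2 CPM in Ctrl (log2 fold change 0.32 ± 0.05, edgeR adjusted p = 4.60e-05). Psmd10, of a chaperone of the ATPase ring, had 115 and 118 CPM in Ell3 KD, against 104 and 106 CPM in Ctrl and rose (log2 fold change 0.15 ± 0.04, edgeR adjusted p = 0.00245), but with offsets for length and GC content its log2 fold change was 0.08 (edgeR adjusted p = 0.0896). Psmd5, of another such chaperone, had 224 and 230.1 CPM in Ell3 KD, against 214 and 210.2 CPM in Ctrl and rose (log2 fold change 0.10 ± 0.03, edgeR adjusted p = 0.0224). Psmd5 was not called without the Ell3 KD replicate 2 (edgeR adjusted p = 0.192), without the Ctrl replicate 2 (edgeR adjusted p = 0.0978), with library totals (edgeR adjusted p = 0.166) or with thinned counts (edgeR adjusted p = 0.0567). Psmd9 had 261 and 251 CPM in Ell3 KD, against 252 and 256 CPM in Ctrl and missed the threshold (edgeR adjusted p = 0.845); Gm26745, on the other strand, shares 25.5% of its exon length. Psmg1 had 119 and 120.3 CPM in Ell3 KD, against 115 and 116 CPM in Ctrl, and its dimer partner Psmg2 had 3.01 and 2.97 CPM in Ell3 KD, against 2.47 and 3.08 CPM in Ctrl. Neither was called (edgeR adjusted p = 0.304 and adjusted p = 0.673), nor was Psmg3 (edgeR adjusted p = 0.818).

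Among the activators and the inhibitor, 3 of 6 genes rose and none fell. Psmf1, which encodes the inhibitor PI31, had 508 and 501 CPM in the Ell3 KD libraries, against 418 and 407 CPM in the Ctrl libraries. Without overlap between the groups, it had one of the larger rises of all the members (log2 fold change 0.29 ± 0.03, edgeR adjusted p = 2.67e-08). Psme4, of the activator PA200, had 57.8 and 57.1 CPM in Ell3 KD, against 52.3 and 50.4 CPM in Ctrl (log2 fold change 0.16 ± 0.05, edgeR adjusted p = 0.00772). Psme3, of the nuclear activator PA28 gamma, had 121 and 129 CPM in Ell3 KD, against 132 and 132 CPM in Ctrl and missed the threshold (edgeR adjusted p = 0.112). The genes of the interferon-induced activator PA28 alpha-beta were low and unequal. Psme1 had 20 and 17 counts in Ell3 KD, against 0 and 10 in Ctrl and missed the threshold (edgeR adjusted p = 0.229). Psme2 had 14.9 and 15.5 CPM in Ell3 KD, against 11.9 and 13 CPM in Ctrl and rose (log2 fold change 0.29 ± 0.09, edgeR adjusted p = 0.00834). The call of Psme2 was lost in 2 of 4 fits that left out a library (highest adjusted p = 0.081) and with DESeq2 (adjusted p = 0.0552), and that of Psme4 in 2 of 4 (highest adjusted p = 0.0663). Psme2 has a near copy in Psme2b, at 3.01 and 2.69 CPM in Ell3 KD, against 2.14 and 2.07 CPM in Ctrl (edgeR adjusted p = 0.0643), so counts of this pair are uncertain.

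Within each ring, whose proteins are present in equal numbers, mRNA levels differed widely when set per length of merged exons. In the alpha ring Psma7 had 459 CPM per kb in Ell3 KD and 418 in Ctrl, and Psma3 had 36 CPM per kb in Ell3 KD and 29.1 in Ctrl. In the beta ring Psmb6 had 405 CPM per kb in Ell3 KD and 348 in Ctrl, and Psmb7 had 39.7 CPM per kb in Ell3 KD and 34.3 in Ctrl. The highest Ctrl level was 14.4 times the lowest in the alpha ring, 10.2 times in the beta ring and 9.16 times in the ATPase ring, where Psmc5 was highest and Psmc6 lowest. With the longest transcript as the length, an alternative chosen after seeing the data, these ratios were 21.3, 16.4 and 5.85. The same genes stood at both ends of each ring on that scale. Among the non-ATPase subunits Psmd4 had 367 CPM per kb in Ell3 KD and 363 in Ctrl, while Psmd13 had 1.53 CPM per kb in Ell3 KD and 2.18 in Ctrl. The chaperone gene Psmg2 was also low, at 1.72 CPM per kb in Ell3 KD and 1.6 in Ctrl, beside 89 CPM per kb in Ell3 KD and 85.9 in Ctrl for Psmg1. Changes with the knockdown were small beside these differences between genes.

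**Figure D4:**
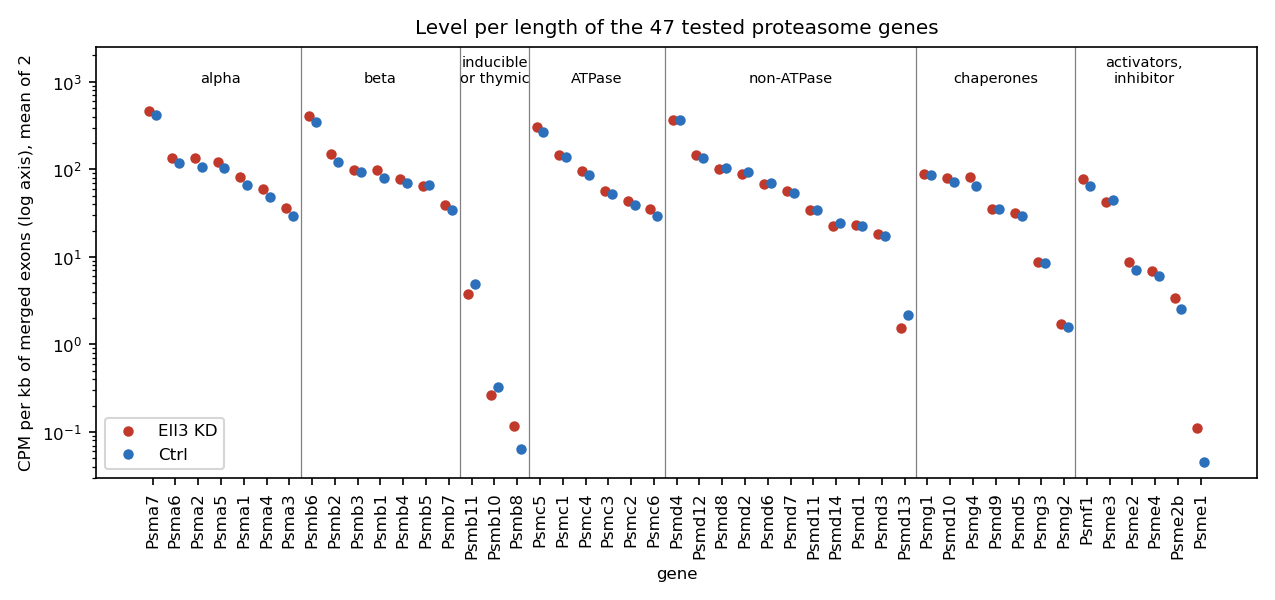
Level per length (CPM per kb of merged exons, log axis, mean of 2 libraries) of the 47 tested proteasome genes, ordered by their Ctrl level within each role, Ell3 KD left of Ctrl for each gene. Psma7, Psmb6, Psmc5 and Psmd4 stand highest in their groups, and Psmd13 and Psmg2 stand lowest in theirs.

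Short transcripts tended to be higher in Ell3 KD among the genes tested at 50 CPM or more. By their medians, the core rings have shorter transcripts than the regulatory particle. Among genes tested at 50 CPM or more the median log2 fold change was 0.28 for 221 genes with transcripts of up to 1000 bases, 0.13 for 338 of up to 1500 bases, 0.05 for 435 of up to 2000 bases, 0.02 for 838 of up to 3000 bases and 0.0041 for 1996 longer ones. In the same classes the median of the members at 50 CPM or more was 0.22 for 3 genes, 0.17 for 9, 0.08 for 10, 0.04 for 9 and 0.12 for 6. The median transcript length was 1239 bases in the alpha ring, 1183 in the beta ring, 1851 in the ATPase ring and 1989 among the non-ATPase subunits. Over 44 members at 1 CPM or more, log2 fold change and length had a Spearman correlation of -0.336 across genes, which share the same 4 libraries. Over 3828 genes tested at 50 CPM or more, this correlation was -0.247. With the trend on length and GC content removed, the median log2 fold change was 0.21 for the alpha ring, 0.15 for the beta ring, 0.15 for the ATPase ring and 0.01 for the non-ATPase subunits. In that fit 12 of the 14 core genes rose and none fell, and 7 of 17 rose and 2 fell in the regulatory particle. Of all genes tested in it, 23.4% rose, 3398 fell, and the median log2 fold change was 0.02.

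**Figure D5:**
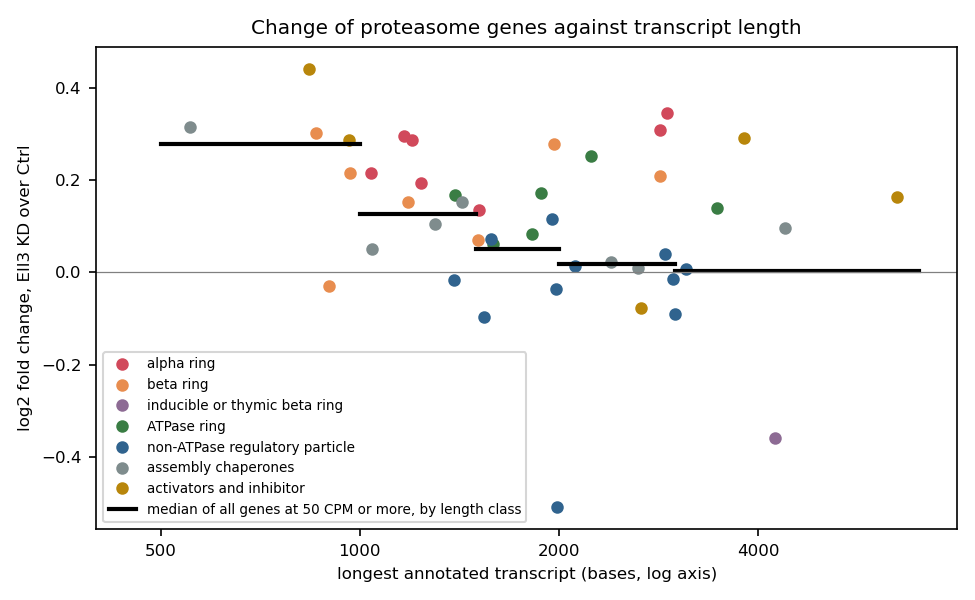
Log2 fold change of Ell3 KD over Ctrl (vertical axis) against the length of the longest annotated transcript (bases, log axis) for the 44 proteasome genes at 1 CPM or more, coloured by role; black lines are the medians of all genes tested at 50 CPM or more in 5 classes of length. The median falls with length to 0.0041 in the longest class. All 7 alpha ring genes and all 6 ATPase genes lie above the line of their class. Psmb5 and Psmb6 of the beta ring, in the shortest class, lie below its line (0.28).

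Of the promoter windows, 41 members had one in the RefSeq table; Psma8, Psmb1, Psmb2, Psmb7, Psmc3, Psmd3, Psmd7 and Psmg2 had none. The antioxidant response element core TGACNNNGC, to which the proteasome gene activators NFE2L1 and NFE2L2 bind, was matched in 6 of the 41 (14.6%), beside 16.3% of the 11858 tested genes with a window and 14% of all 27025 genes of the table. Those 6 were Psmb5, Psmb6, Psmc6, Psmd9, Psmd12 and Psme4. CCAAT was matched in 34.1% of the members, in 42.7% of the tested genes and in 41.1% of all genes of the table. CCGGAAG was matched in 14 of the 41 members (34.1%), beside 17.8% of the tested genes and 9.93% of all genes of the table. By subcomplex it was in 9 of 14 genes of the regulatory particle (64.3%), Psmd4 and Psmd12 above among them, and in 1 of 11 of the core (9.09%), Psma6. A gene with several windows counted as matched if any of them held the motif. These shares were not tested, and a match of letters does not show that a factor binds.

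Partners of the proteasome that carry other names were looked at as lists. Of 12 genes for associated and assembly factors, 3 rose (25%) and 1 fell (8.33%), with a median log2 fold change of 0.03. Over all genes tested the shares were 21.1% and 21.8%. Akirin2, which encodes the factor that carries proteasomes into the nucleus, had 163 and 167 CPM in the Ell3 KD libraries, against 97.1 and 107 CPM in the Ctrl libraries. This was a larger change than that of any called member, without overlap between the groups (log2 fold change 0.69 ± 0.04, edgeR adjusted p = 1.02e-12). Sem1, which encodes the smallest lid subunit, had 157 and 152 CPM in Ell3 KD, against 125 and 124 CPM in Ctrl (log2 fold change 0.32 ± 0.04, edgeR adjusted p = 1.72e-07), and Pomp, which encodes the maturation factor of the core, had 176 and 175 CPM in Ell3 KD, against 148 and 156 CPM in Ctrl (log2 fold change 0.21 ± 0.04, edgeR adjusted p = 6.39e-05). Adrm1, which encodes another ubiquitin receptor of the base, had 426 and 417 CPM in Ell3 KD, against 486 and 491 CPM in Ctrl and fell (log2 fold change -0.21 ± 0.03, edgeR adjusted p = 3.13e-06). AI314180, which encodes the scaffold ECM29, had 171 and 179.7 CPM in Ell3 KD, against 171 and 173 CPM in Ctrl (edgeR adjusted p = 0.624).

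Of 11 genes for regulators of proteasome gene transcription, 1 rose (9.09%) and 2 fell (18.2%), beside 21.1% and 21.8% of all genes tested. Nfe2l1, at 49.5 and 45.3 CPM in Ell3 KD, against 48.8 and 43.7 CPM in Ctrl, and Nfe2l2, at 13.1 and 14.3 CPM in Ell3 KD, against 15.5 and 15.6 CPM in Ctrl, missed the threshold (edgeR adjusted p = 0.634 and adjusted p = 0.0843). Ddi2, whose protease product activates NFE2L1, had 80.8 and 81.1 CPM in Ell3 KD, against 90.6 and 89.5 CPM in Ctrl and fell (log2 fold change -0.15 ± 0.04, edgeR adjusted p = 0.00371). Rsc1a1, on the same strand, shares 18.3% of the exon length of Ddi2, so its counts are less certain. The CCAAT-binding factor NF-Y had subunit genes called in both directions. Nfyc had 238 and 235 CPM in Ell3 KD, against 266 and 251 CPM in Ctrl and fell (log2 fold change -0.13 ± 0.03, edgeR adjusted p = 0.00401). Nfya, of another of its subunits, had 96.3 and 91.8 CPM in Ell3 KD, against 78.7 and 79.5 CPM in Ctrl and rose (log2 fold change 0.25 ± 0.04, edgeR adjusted p = 3.34e-05). Ngly1, whose product removes sugars from NFE2L1, had 135 and 141 CPM in Ell3 KD, against 145 and 142 CPM in Ctrl and missed the threshold (edgeR adjusted p = 0.245). The call of Nfyc was lost without the Ctrl replicate 1 (edgeR adjusted p = 0.0677).

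Upstream of the proteasome, 2 of 6 genes of ubiquitin supply and activation rose (33.3%) and 1 fell (16.7%). For all genes tested these shares were 21.1% and 21.8%. Ubb, the polyubiquitin gene that was by far the most abundant of them, had 4353 and 4197 CPM in Ell3 KD, against 3839 and 3792 CPM in Ctrl (log2 fold change 0.16 ± 0.02, edgeR adjusted p = 7.59e-06). Rps27a, whose product is a ubiquitin fused to a ribosomal protein, had 99.3 and 105 CPM in Ell3 KD, against 81.1 and 87.9 CPM in Ctrl and rose (log2 fold change 0.28 ± 0.04, edgeR adjusted p = 2.02e-05). Uba1, of the main activating enzyme, had 145 and 148 CPM in Ell3 KD, against 159 and 156 CPM in Ctrl and fell (log2 fold change -0.10 ± 0.04, edgeR adjusted p = 0.0202), a call that was lost in 3 of the 4 fits that left out a library (highest adjusted p = 0.187), with DESeq2 (adjusted p = 0.0589) and with the length and GC offsets (adjusted p = 0.602). Of 6 shuttle genes tested, which carry ubiquitinated proteins to the proteasome, 2 rose and 1 fell, with Rad23b at 70.1 and 74.6 CPM in Ell3 KD, against 60.7 and 60.9 CPM in Ctrl (log2 fold change 0.25 ± 0.05, edgeR adjusted p = 1.01e-04). Ubqln2 had 7.27 and 8.27 CPM in Ell3 KD, against 5.88 and 6.56 CPM in Ctrl and rose (log2 fold change 0.32 ± 0.12, edgeR adjusted p = 0.0385). Its call was lost with DESeq2 (adjusted p = 0.155), with library totals (edgeR adjusted p = 0.0701), without the Ell3 KD replicate 2 (edgeR adjusted p = 0.271) and without the Ctrl replicate 1 (edgeR adjusted p = 0.189). Ddi2 was the one that fell, and Ubqln1, the most abundant, had 625 and 632 CPM in Ell3 KD, against 639.6 and 649 CPM in Ctrl (edgeR adjusted p = 0.337).

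Of 14 genes for the unfoldase p97 and its cofactors, 1 rose (7.14%) and 2 fell (14.3%), beside 21.1% and 21.8% of all genes tested. Nsfl1c had 119 and 119 CPM in Ell3 KD, against 97 and 105 CPM in Ctrl and rose (log2 fold change 0.24 ± 0.04, edgeR adjusted p = 4.66e-05). Plaa had 129.9 and 134 CPM in Ell3 KD, against 147 and 149.8 CPM in Ctrl and fell (log2 fold change -0.17 ± 0.04, edgeR adjusted p = 7.14e-04), and Nploc4 had 59.9 and 57.9 CPM in Ell3 KD, against 65.6 and 62.6 CPM in Ctrl and fell (log2 fold change -0.12 ± 0.05, edgeR adjusted p = 0.0362). Neither fall was called with the length and GC offsets (edgeR adjusted p = 0.271 for Plaa and adjusted p = 0.634 for Nploc4). The call of Nploc4 was also lost with DESeq2 (adjusted p = 0.142), without the low-count filter (edgeR adjusted p = 0.0706) and in 3 of the 4 fits that left out a library (highest adjusted p = 0.269). The most abundant, Ubxn4 at 189.9 and 188 CPM in Ell3 KD, against 188 and 196 CPM in Ctrl and Ubxn2a at 142 and 150.2 CPM in Ell3 KD, against 138 and 152 CPM in Ctrl, missed the threshold (edgeR adjusted p = 0.589 and adjusted p = 0.893). Vcp, which encodes p97, had 22 and 21.7 CPM in Ell3 KD, against 23.8 and 24.7 CPM in Ctrl (edgeR adjusted p = 0.068).

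Of 8 genes of MHC class I antigen processing tested, the pathway that immunoproteasomes feed, 2 rose (25%) and 2 fell (25%). These shares are near those of all genes tested (21.1% and 21.8%). B2m, the light chain gene, had 22.5 and 22.4 CPM in Ell3 KD, against 14.6 and 15.9 CPM in Ctrl (log2 fold change 0.56 ± 0.07, edgeR adjusted p = 1.21e-06). Tapbp, of peptide loading, had 7.77 and 7.24 CPM in Ell3 KD, against 11 and 11.8 CPM in Ctrl (log2 fold change -0.60 ± 0.10, edgeR adjusted p = 3.80e-05). Gm19412, on the other strand, shares 24.9% of the exon length of Tapbp, and Zbtb22, on the same strand, 4.11%, so its counts are less certain. Tap1, the peptide transporter gene next to Psmb9, fell (edgeR adjusted p = 2.93e-04), with 0 and 0 counts in Ell3 KD, against 12 and 11 in Ctrl, and the interferon regulator gene Irf1 had 226 and 225 CPM in Ell3 KD, against 227 and 217 CPM in Ctrl (edgeR adjusted p = 0.64).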

How the data were processed

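The authors deposited 1 table of raw counts by gene symbol for each library. The submitters' processing notes name HISAT2 2.2.1.0, featureCounts, FastQC 0.11.5 and the mm10 build. Which annotation and strand setting were used, and how reads with several matches were treated, is not stated there. The labels' protocols give 16 cycles of amplification and paired-end reads of 150 bases. Sample titles gave the groups and the replicate numbers. Whether the libraries came from separate animals is not said, and the p-values therefore measure only how these libraries vary, which may be technical. Chi-square tests within groups gave 4.17 per degree of freedom in Ell3 KD and 4.08 in Ctrl, so no 2 libraries agreed within sampling noise.

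Ell3 KD was compared with Ctrl by the quasi-likelihood test of edgeR 4.0.16 in R 4.3.3 (filterByExpr, TMM, no covariates, two-sided) on all 4 libraries and 17879 genes, with Benjamini-Hochberg adjustment over all of them and a threshold of 0.05. Standard errors are the log2 fold change over the square root of its F statistic. The alternatives tried were other scalings, no low-count filter, DESeq2 1.42.0, thinned counts, an assumed spread, the replicate block, offsets for length and GC content (mgcv), and leaving out each library. The scripts were tested on simulated data.

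Every member was counted. Those given in full were, per role, the 2 highest, the largest called rise and fall without overlap between groups, and all alternative beta and germline subunits; from each list of partners the 2 highest and up to 3 called genes of smallest p. Other members and partners were added after their values were seen. Members and lists were chosen with earlier results of these data known. Gene models, exon overlaps and lengths came from GENCODE M21 (GRCm38, another name of mm10), in which all 49 members matched a single gene. Promoters came from RefSeq (GRCm38.p6), and their genomic positions are counted from 1.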

Additional observations from a re-analysis of the deposited data

How the results depend on the processing

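With an assumed coefficient of variation of 0.2 in place of the spread between these libraries, 0 members rose and 0 fell, and of all genes 861 rose and 1103 fell. Scaled by library totals alone, 22 members rose and 5 fell with a median log2 fold change of 0.0963, while of all genes 3142 rose (17.6%), 4557 fell and the median moved to -0.0417. The median over the members was 0.1499 without the low-count filter, 0.1234 with offsets for length and GC content and 0.1233 with these offsets and the replicate block. Leaving out each library in turn, it ranged from 0.1224 to 0.1431, and the median over all genes tested from -0.0112 to 0.0109. For the inducible and thymic beta subunits the median of -0.31 turned to 0.2253 without the filter, 0.2405 with DESeq2 and, leaving out libraries, 0.8397 without the Ctrl replicate 1 and 0.1016 without the Ctrl replicate 2; without the Ell3 KD replicate 1 it was -0.3529. Psmb9 did not pass the filter in the main fit, so the median there was over 3 genes. In the fits with a positive median it was over 4, with Psmb9 among them. The medians of different sign therefore cover different sets of genes. Of the 13 alternatives, Psmb8 and Psmb11 kept their direction in all and Psmb10 in 12.

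All 26 called members kept their direction under every alternative tried, and 22 of them were called in all 4 fits that left out a library; Psmd2, Psmd5, Psme2 and Psme4 were not. DESeq2 called 25 of the 26, and the fit with length and GC offsets called 22 of the 23 that rose, without Psmd10, and 2 of the 3 that fell, without Psmd2. Across genes, the deviations of the number 1 libraries from their group means had a correlation of 0.0294. With 2 libraries per group, this value cannot show whether same-numbered libraries were prepared together. With the replicate block, 24 members rose and 3 fell, and 3894 and 3987 of all genes. With counts thinned to the smallest total, 22 members rose and 3 fell, and of all genes 3461 rose (20.1%) and 3597 fell. Psmd14 was called lower with the length and GC offsets (edgeR adjusted p = 0.00513), and Psme3 with library totals (edgeR adjusted p = 0.0163). Of the 47 members tested, 44 had a 95% interval within a 2-fold change; Psmb8, Psmb10 and Psme1, all of low counts, did not.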

Other observations

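Among annotated pseudogenes of the members, Psmb6-ps2 had 134 and 83 counts in Ell3 KD, against 30 and 23 in Ctrl. It rose (log2 fold change 1.32 ± 0.32, edgeR adjusted p = 0.00154) in the same direction as Psmb6. Whether reads were shared between the genes was not tested. Psmb6-ps had 13 and 11 counts in Ell3 KD, against 9 and 5 in Ctrl, Psmb7-ps2 had 8 and 7 counts in Ell3 KD, against 5 and 1 in Ctrl, and Psmb5-ps had no count in any library.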
